A study of Mus musculus with 10 samples.

Results

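The genes followed here encode the muscle nicotinic acetylcholine receptor and the proteins that gather it under the motor nerve ending. They are 10 genes of the 21956 in the deposited table, taken by symbol. Chrna1 (ENSMUSG00000027107), Chrnb1 (ENSMUSG00000041189), Chrnd (ENSMUSG00000026251), Chrne (ENSMUSG00000014609) and Chrng (ENSMUSG00000026253) are receptor subunits. Musk (ENSMUSG00000057280), Lrp4 (ENSMUSG00000027253), Dok7 (ENSMUSG00000044716) and Rapsn (ENSMUSG00000002104) belong to the clustering pathway, and Ncam1 (ENSMUSG00000039542) is an adhesion molecule. Each symbol matched 1 row, and 9 of the 10 genes passed the filter on low counts, Chrng being the exception. Poly(A) RNA was sequenced from WT mouse gastrocnemius, the main muscle of the calf, in 5 libraries labelled HLI and 5 labelled Sham. The abbreviation HLI is not expanded in the labels and is taken to mean hindlimb ischaemia. Strain, age and time after surgery are not stated. The study's title concerns endothelial FGF13, angiogenesis and HIF-1α, and the comparison asks which muscle transcripts differ between HLI and Sham. Whether each library stands for its own animal is not labelled, and p-values then reflect only how much these libraries vary, which may be technical.

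At the neuromuscular junction, motor nerve terminals release acetylcholine onto a receptor made of alpha, beta and delta subunits with either a gamma or an epsilon subunit. The gamma subunit belongs to the fetal receptor, which is spread over the whole fibre before innervation, and the epsilon subunit replaces it in the adult receptor at the synapse. Nerve-derived agrin binds LRP4, which activates the receptor tyrosine kinase MuSK with the help of DOK7, and rapsyn then anchors the receptors in clusters. In rodent muscle that has lost its nerve or is regenerating, the fetal receptor programme and NCAM are known to return along the fibre, driven by myogenic factors such as myogenin.

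Library depth ranged from 16556385 to 22136299 estimated counts. The 10 genes had between 0 and 1371 estimated counts in a library. The tissue label fitted the markers. The summed level of 8 mature fibre genes, among them Acta1 and Ckm, was 45289 to 125600 CPM in HLI and 108890 to 143040 CPM in Sham, where CPM is the count scaled to a fixed library total (counts per 1000000) after TMM normalisation. The 3 adipocyte markers summed to 14.5 to 140 CPM in HLI and 88.6 to 158 CPM in Sham, and the 3 tendon markers to 24.4 to 114 CPM in HLI and 68.7 to 121 CPM in Sham. Of 6 motor axon and neuron markers, Chat and Slc18a3 had 0 counts in all 10 libraries. The markers summed to 0.44 to 2.87 CPM in HLI and 0.24 to 2.17 CPM in Sham. Only Snap25 among them passed the filter, at 0.97 ± 0.58 CPM in HLI and 0.23 ± 0.33 CPM in Sham (SD, n = 5 each). Its log2 fold change was 2.06 (SE 0.91, edgeR adjusted p = 0.29). Some libraries stood apart from their group. HLI replicate 3 had the lowest summed mature fibre level, at 45289 CPM, and the highest level of the embryonic myosin gene Myh3, at 442 CPM. The library labelled HLI replicate 1 had 7.71 CPM of Myh3, against 79.95 CPM or more in the other HLI libraries, and the library labelled Sham replicate 1 had 164 CPM, against 5.63 CPM or less in the other Sham libraries. Whether the labels of these 2 libraries were exchanged was not tested, and every mean and fold change below uses them as labelled. The summed macrophage marker level was 2488 CPM in the library labelled HLI replicate 1 and 1164 CPM in the library labelled Sham replicate 1, the highest of each group. Values are therefore given below for every library, and with these libraries left out where that matters.

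None of the 9 tested genes passed edgeR's quasi-likelihood test at a Benjamini-Hochberg adjusted p of 0.05, as was true of all 13404 genes tested (0% called higher and 0% called lower). At an unadjusted edgeR p of 0.05, 10.7% of all genes (1438) lay higher in HLI and 6.15% (824) lower. DESeq2 called 35 genes higher and 7 lower, none of them among the 9, and Chrng was not in that fit. Among the 9, Chrna1, Chrnb1 and Chrnd had an unadjusted p under 0.05. In none of the 10 genes were the groups free of overlap, a pattern seen in 0.776% of all genes with every HLI library higher and in 0.873% with every HLI library lower. Of the 4 tested subunit genes, 3 had log2 fold changes of HLI over Sham above 0 and 1 below, with a median of 0.62, and all 4 clustering genes lay below 0, with a median of -0.16. Over all genes 53.8% lay above 0 and the median was 0.03. In whole muscle, a change in the number of cells or nuclei of a kind and a change in RNA per cell cannot be told apart.

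**Figure D1:**
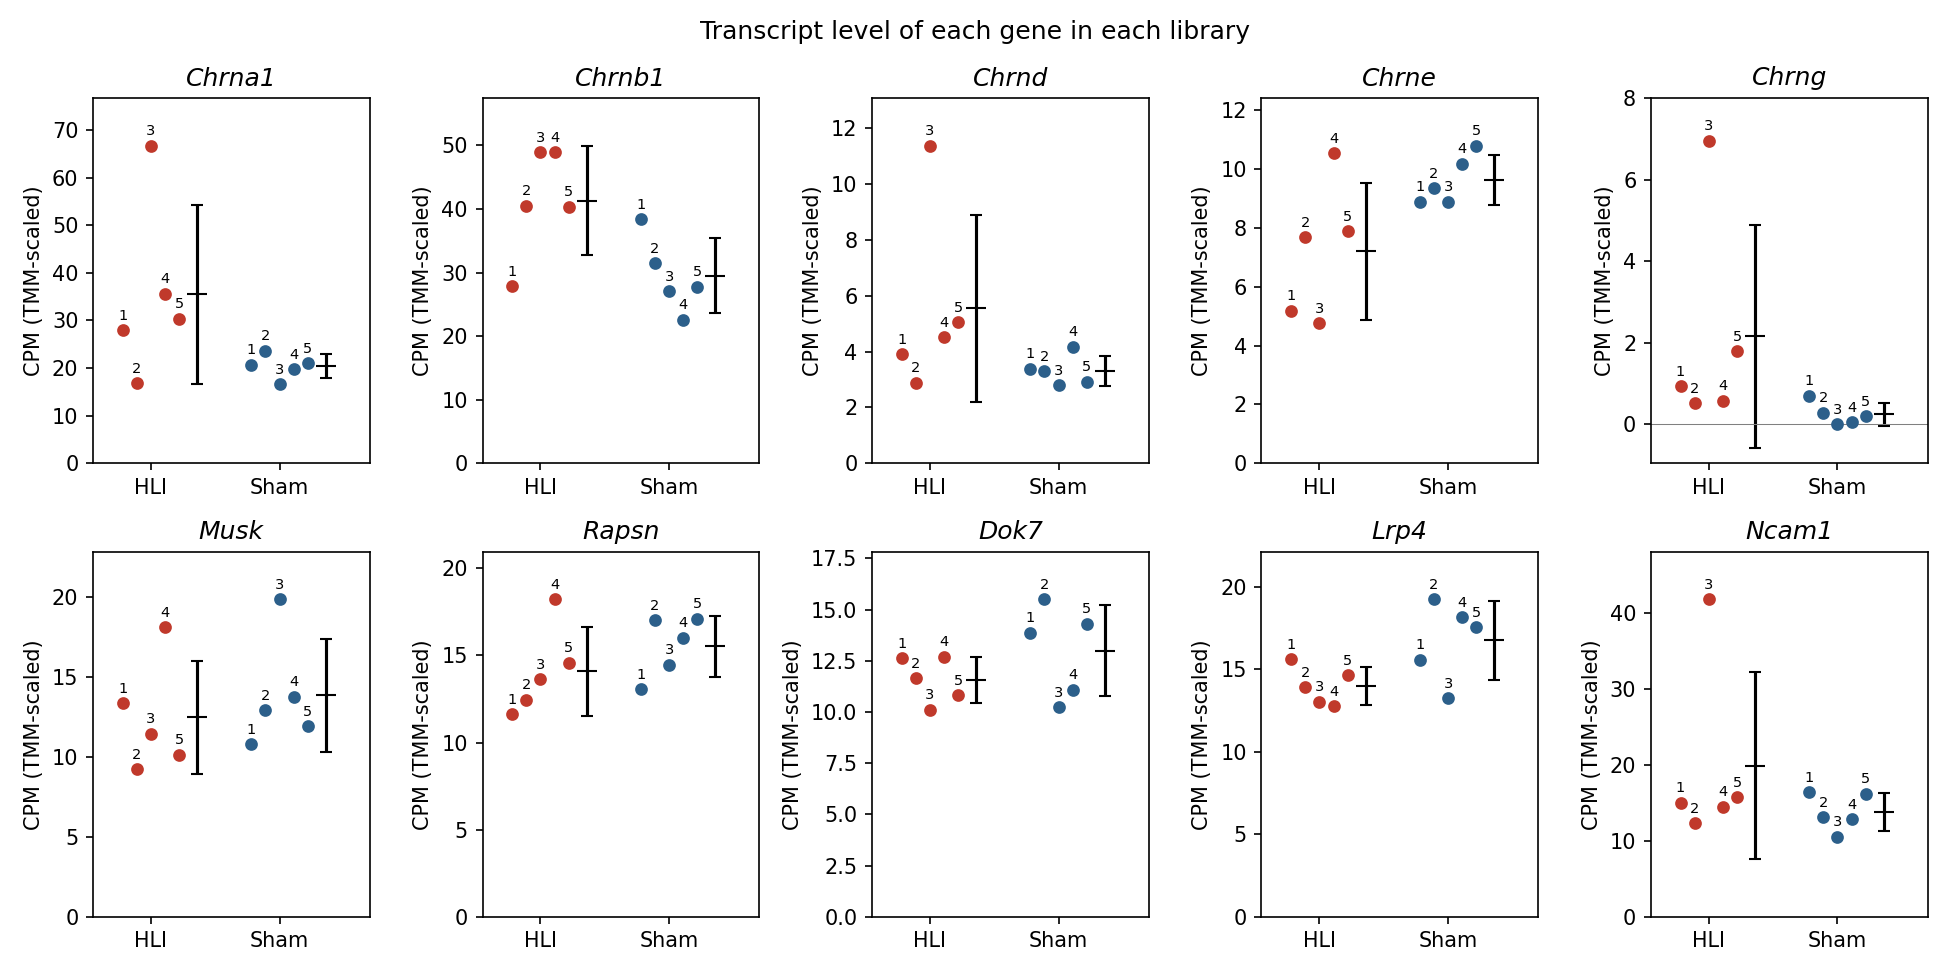
Level of each of the 10 genes in CPM (vertical axis, linear, a separate scale for each gene) in the 5 HLI libraries (red, left) and the 5 Sham libraries (blue, right), with replicate numbers above the points and the mean ± SD beside each group. HLI replicate 3 is the highest library for Chrna1, Chrnd, Chrng and Ncam1, at 66.7, 11.4, 6.96 and 41.8 CPM.

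The proximal promoters of Chrna1, Chrng and Chrne are shown because Chrng and Chrne distinguish the fetal from the adult receptor, and Chrna1, shared by both receptors, had the largest log2 fold change of the tested subunit genes. Each is the stretch of 250 bases before the RefSeq gene start in build GRCm38.p6, read 5′ to 3′ on the gene's own strand. They lie at chr2:73580339-73580588 (minus strand) for Chrna1, at chr1:87205561-87205810 (plus strand) for Chrng and at chr11:70619195-70619444 (minus strand) for Chrne. Capitals mark E-boxes (CANNTG, the motif class bound by myogenic factors, the same on both strands) and the N-box (CCGGAA on either strand, a motif known from synapse-specific subunit promoters). E-boxes and N-boxes do not overlap in these windows.
Chrna1: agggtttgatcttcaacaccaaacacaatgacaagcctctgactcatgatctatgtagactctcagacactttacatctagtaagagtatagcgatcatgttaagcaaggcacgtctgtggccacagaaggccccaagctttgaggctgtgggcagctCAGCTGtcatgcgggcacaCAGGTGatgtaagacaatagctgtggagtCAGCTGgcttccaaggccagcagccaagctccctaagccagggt
Chrng: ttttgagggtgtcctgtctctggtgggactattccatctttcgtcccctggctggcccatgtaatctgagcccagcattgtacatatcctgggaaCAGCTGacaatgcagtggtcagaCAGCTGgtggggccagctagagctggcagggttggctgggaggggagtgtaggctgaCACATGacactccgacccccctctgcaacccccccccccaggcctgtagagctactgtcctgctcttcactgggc
Chrne: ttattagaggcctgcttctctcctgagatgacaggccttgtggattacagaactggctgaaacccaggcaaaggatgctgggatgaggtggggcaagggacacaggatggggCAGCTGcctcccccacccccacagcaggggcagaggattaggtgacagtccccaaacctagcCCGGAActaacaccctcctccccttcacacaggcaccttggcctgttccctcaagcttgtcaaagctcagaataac
The Chrna1 window held 3 E-boxes, the Chrng window 3 and the Chrne window 1, and the Chrne window held the only N-box among these 3. The E-box of the form CAGCTG occurred 2 times in Chrna1, 2 times in Chrng and 1 time in Chrne. Of the 32851 RefSeq windows of this length, 12.2% held at least 3 E-boxes, 1.26% at least 2 of the form CAGCTG and 12% an N-box. Windows were found for 6 of the 10 genes. Chrnb1 and Musk had 3 E-boxes each, and the 2 windows of Dok7 had 1 and 0. These matches describe letters and say nothing of binding.

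Chrng, the fetal gamma subunit gene, had the widest spread between libraries. Its estimated counts were 17, 9, 143, 10 and 33 in HLI replicates 1 to 5, against 12, 6, 0, 1 and 3 in Sham replicates 1 to 5, or 212 counts in all HLI libraries and 22 in all Sham libraries. On the CPM scale these were levels of 0.94, 0.52, 6.96, 0.59 and 1.79 CPM in HLI, against 0.70, 0.29, 0, 0.06 and 0.20 CPM in Sham. HLI replicates 1, 3 and 5 lay above all Sham libraries, HLI replicates 2 and 4 lay below Sham replicate 1, and the 0 of Sham replicate 3 allows up to 3 counts or 0.161 CPM, a limit that covers counting error only. The filter asked for 0.58 CPM, before TMM scaling, in 5 libraries, which Chrng did not reach, so the gene was not tested with the rest. Without the filter its log2 fold change was 3.08 (SE 0.89, edgeR adjusted p = 0.32). An exact two-sided permutation test over the 252 assignments of libraries to groups, run on this gene alone after its values were seen, gave a difference in mean log2 CPM of 2.34 and p = 0.0238 (the smallest possible is 0.0079). Without HLI replicate 3 the unfiltered log2 fold change was 1.92 (SE 0.77, edgeR adjusted p = 0.63), and without both libraries numbered 1 it was 4.09 (SE 1.01, edgeR adjusted p = 0.12).

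Chrne, the adult epsilon subunit gene, ran the other way. Its level was 5.18, 7.68, 4.77, 10.5 and 7.88 CPM in HLI replicates 1 to 5, against 8.89, 9.35, 8.89, 10.2 and 10.8 CPM in Sham replicates 1 to 5. HLI replicates 1, 2, 3 and 5 lay below all Sham libraries and HLI replicate 4 lay within their range. The means were 7.21 ± 2.34 CPM in HLI and 9.62 ± 0.84 CPM in Sham (SD, n = 5 each), and edgeR's log2 fold change was -0.42 (SE 0.21, adjusted p = 0.31). Leaving out HLI replicate 3 gave -0.30 and leaving out HLI replicate 1 gave -0.32, these being the libraries lowest in Chrne, and leaving out HLI replicate 4 gave -0.61 (edgeR adjusted p = 0.60, 0.37 and 0.082). The summed mature fibre level was 86598, 100170, 45289, 125600 and 83368 CPM in HLI replicates 1 to 5, so that HLI replicates 1, 2, 3 and 5 lay below the Sham range in fibre genes as in Chrne, and the part of fibre RNA in the Chrne values was not tested.

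Set per length, as TPM (transcript levels scaled for length to a total of 1000000), the gamma and epsilon transcripts can be compared with each other. Gamma made up 9.41%, 12.7%, 51.1%, 3.09% and 11.6% of gamma plus epsilon TPM in HLI replicates 1 to 5, against 6.31%, 1.75%, 0%, 1.22% and 1.05% in Sham replicates 1 to 5. In HLI replicate 3 the gamma transcript, at 7.29 TPM, was above epsilon, at 6.96 TPM. HLI replicates 1, 2, 3 and 5 lay above all Sham libraries, and HLI replicate 4 lay below Sham replicate 1. As a ratio of gamma to epsilon in CPM, HLI replicate 2 also lay below Sham replicate 1, at 0.06767 against 0.07895, which leaves HLI replicates 1, 3 and 5 above Sham. The difference between the group medians of the gamma to epsilon ratio was 0.118 in TPM and 0.162 in CPM, and between 0.105 and 0.126 when any 1 library was left out. No test is given for this ratio. TPM per CPM of unscaled counts varied little for most other genes, for Chrna1 from 0.388 to 0.437. It varied more for Dok7 (0.616 to 0.788) and Ncam1 (0.512 to 0.622). For Chrng it ran from 0.635 to 2.45, so the TPM of Chrng does not follow its few counts closely. HLI replicate 2 is the clearest case, with 9 counts and 1.30 TPM beside 10 counts and 0.349 TPM in HLI replicate 4.

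**Figure D2:**
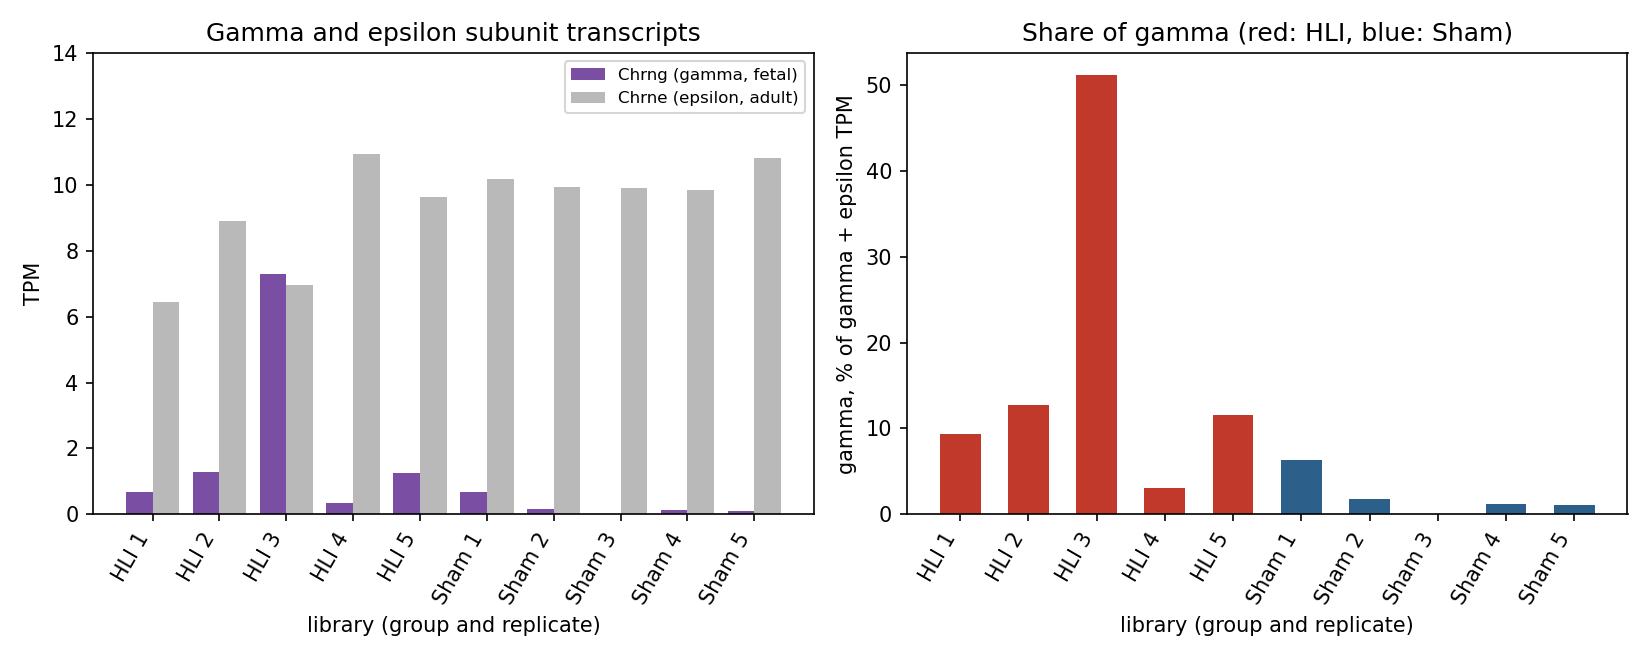
Left, TPM of Chrng (purple) and Chrne (grey) in each library, and right, Chrng as a percentage of the summed TPM of both genes, with HLI in red and Sham in blue; linear axes from 0. The share of gamma was 51.1% in HLI replicate 3, between 3.09% and 12.7% in the other HLI libraries and between 0% and 6.31% in Sham.

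Chrna1, which encodes the subunit that binds acetylcholine, was at 27.9, 16.8, 66.7, 35.6 and 30.3 CPM in HLI replicates 1 to 5, against 20.7, 23.6, 16.6, 19.7 and 21.0 CPM in Sham replicates 1 to 5. All HLI libraries but replicate 2 lay above the Sham range, and HLI replicate 2 lay within it. The means were 35.5 ± 18.8 CPM in HLI and 20.3 ± 2.54 CPM in Sham (SD, n = 5 each), and edgeR's log2 fold change was 0.80 (SE 0.29, unadjusted p = 0.017, adjusted p = 0.29). It dropped to 0.44 when HLI replicate 3 was left out (edgeR adjusted p = 0.57). Per length, Chrna1 was 1.96, 0.794, 5.12, 1.23 and 1.40 times Chrne in HLI replicates 1 to 5, against 0.852, 0.920, 0.682, 0.705 and 0.711 times in Sham replicates 1 to 5, on the TPM scale.

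Chrnd, the delta subunit gene, followed Chrna1 at a lower level. It stood at 3.91, 2.89, 11.4, 4.51 and 5.05 CPM in HLI replicates 1 to 5, against 3.39, 3.29, 2.79, 4.18 and 2.92 CPM in Sham replicates 1 to 5. HLI replicates 3, 4 and 5 lay above the Sham range and HLI replicates 1 and 2 within it. The log2 fold change was 0.75 (SE 0.33, edgeR unadjusted p = 0.045, adjusted p = 0.29), and 0.30 without HLI replicate 3 (edgeR unadjusted p = 0.19). In HLI replicate 3 Chrnd was 3.44 times and Chrna1 3.28 times the Sham mean, in CPM. The root mean square difference between the log2 CPM profiles of these 2 genes over the 10 libraries, each centred on its own mean, was 0.20.

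Chrnb1, which encodes the beta subunit that docks rapsyn, had an HLI coefficient of variation of 20.9%, against 52.9% for Chrna1 and 60.6% for Chrnd, and a Sham coefficient of variation of 20.0%, against 12.5% and 16.4%. Its values were 27.9, 40.5, 48.9, 48.9 and 40.3 CPM in HLI replicates 1 to 5, against 38.4, 31.5, 27.1, 22.6 and 27.8 CPM in Sham replicates 1 to 5. HLI replicates 2 to 5 lay above all Sham libraries, while HLI replicate 1 lay inside the Sham range and Sham replicate 1 was the highest Sham library. The means were 41.3 ± 8.64 CPM in HLI and 29.5 ± 5.90 CPM in Sham (SD, n = 5 each), a log2 fold change of 0.49 (SE 0.17, edgeR unadjusted p = 0.016, adjusted p = 0.29). It was 0.42 when HLI replicate 3 was left out. Without both libraries numbered 1, the ones that differ from their groups in Myh3, it was 0.71 (edgeR unadjusted p = 0.00031, adjusted p = 0.060).

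The 4 clustering genes showed smaller differences. Musk, the receptor tyrosine kinase, was at 13.4, 9.23, 11.5, 18.2 and 10.2 CPM in HLI replicates 1 to 5, against 10.8, 12.9, 19.9, 13.8 and 11.9 CPM in Sham replicates 1 to 5. The groups overlapped widely, with HLI replicate 4 and Sham replicate 3 far above the others. The log2 fold change was -0.15 (SE 0.21, edgeR adjusted p = 0.68), and 0.0035 without Sham replicate 3.

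Rapsn, the scaffold that binds the receptor from inside, was at 11.6, 12.5, 13.6, 18.2 and 14.6 CPM in HLI replicates 1 to 5, against 13.05, 17.0, 14.5, 16.0 and 17.1 CPM in Sham replicates 1 to 5, and edgeR's log2 fold change was -0.14 (SE 0.14, adjusted p = 0.57). HLI replicate 4 was its highest library, and HLI replicates 1 and 2 lay below the Sham range. The direction of Musk and Rapsn flipped on log2(TPM + 1) without scaling, with differences of 0.03 and 0.04, but there the median gene stood at 0.19, and relative to it they were -0.15 and -0.14. In HLI replicate 3, the library with the highest Chrna1 and Chrnd, they stood at 0.83 times (Musk) and 0.88 times (Rapsn) the Sham mean in CPM.

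Dok7, the cytoplasmic activator of MuSK, was at 12.6, 11.7, 10.1, 12.7 and 10.8 CPM in HLI replicates 1 to 5, against 13.9, 15.5, 10.2, 11.1 and 14.3 CPM in Sham replicates 1 to 5. Its log2 fold change was -0.17 (SE 0.14, edgeR adjusted p = 0.49), and 1 HLI library lay below the Sham range. Lrp4, the agrin receptor, was at 15.6, 13.9, 13.04, 12.8 and 14.6 CPM in HLI replicates 1 to 5, against 15.6, 19.2, 13.2, 18.1 and 17.6 CPM in Sham replicates 1 to 5. Its log2 fold change was -0.26 (SE 0.12, edgeR unadjusted p = 0.058, adjusted p = 0.30), with HLI replicates 3 and 4 below the Sham range. Dok7 and Lrp4 had the smallest root mean square difference of any 2 of the 10 genes, 0.17 on the log2 CPM scale. Both stayed between -0.26 and 0.35 of their own means, and genes that vary little score low whatever their pattern. In HLI replicate 4 they stood at 0.06 (Dok7) and -0.25 (Lrp4), and in Sham replicate 4 at -0.13 and 0.25. The 0.17 therefore does not show that they moved together.

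Ncam1 encodes the neural cell adhesion molecule, which in adult muscle is found at the junction and on satellite cells and spreads over denervated or regenerating fibres. It was at 15.04, 12.4, 41.8, 14.5 and 15.8 CPM in HLI replicates 1 to 5, against 16.4, 13.1, 10.6, 12.9 and 16.2 CPM in Sham replicates 1 to 5. HLI replicate 3 was the only library outside the Sham range. The log2 fold change was 0.53 (SE 0.31, edgeR adjusted p = 0.36) with all libraries and 0.06 without HLI replicate 3 (edgeR adjusted p = 0.89).

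**Figure D3:**
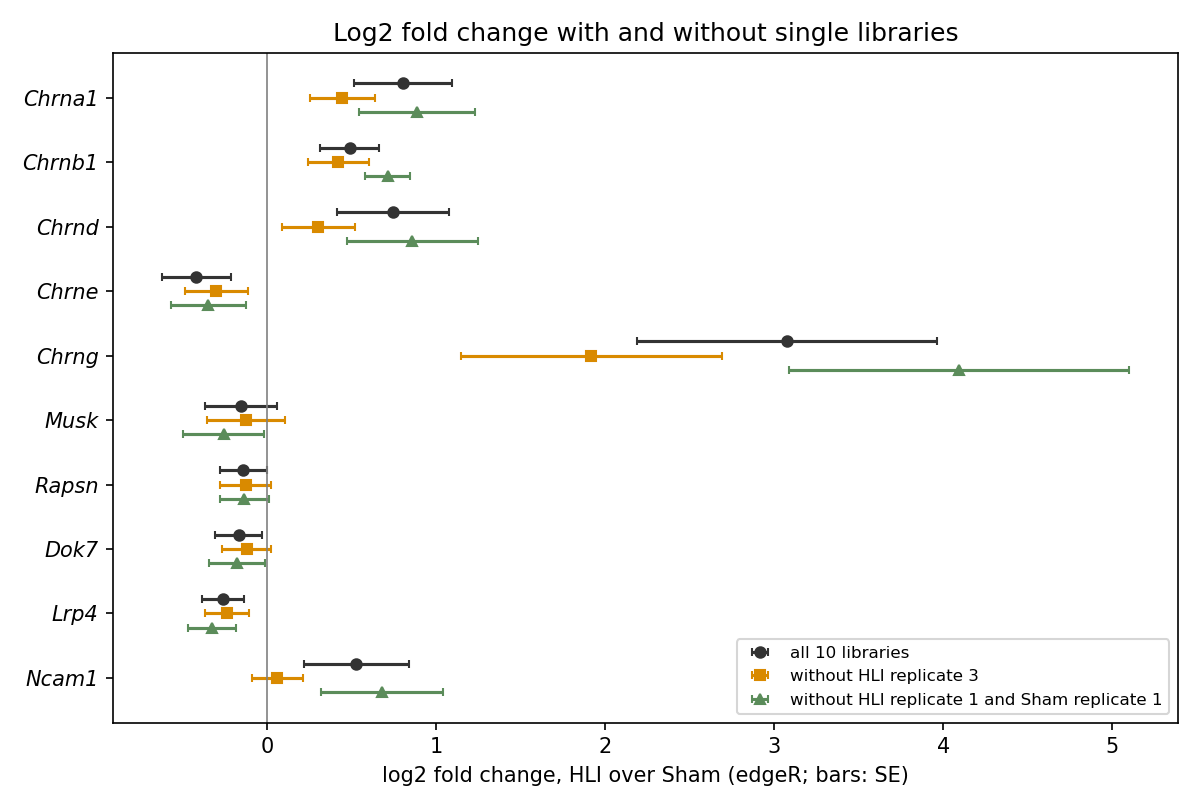
Log2 fold change of HLI over Sham (horizontal axis) with its standard error from edgeR, with all libraries (black), without HLI replicate 3 (orange) and without HLI replicate 1 and Sham replicate 1 (green); Chrng, which the filter drops, is from fits without the filter. Without HLI replicate 3 the values of Chrna1, Chrnd, Chrng and Ncam1 were 0.44, 0.30, 1.92 and 0.06, and those of the clustering genes stayed between -0.23 and -0.12.

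Markers of other cell types also differed between libraries. The summed level of 6 satellite cell and myoblast markers was 121 CPM in this library, 49.8 to 72.9 CPM in the other HLI libraries and 48.3 to 68.7 CPM in Sham. The summed level of 8 Schwann cell markers, a cell type that also makes NCAM, was 125 CPM in HLI replicate 3, the lowest of all libraries, 282 to 402 CPM in the other HLI libraries and 172 to 613 CPM in Sham. The summed level of 6 monocyte and macrophage markers was highest in HLI replicate 1, at 2488 CPM, with 2417 CPM in HLI replicate 3, 627 to 1356 CPM in the other HLI libraries and 438 to 1164 CPM in Sham. That of 5 T and NK cell markers was 13.8 CPM in HLI replicate 3, 1.49 to 6.20 CPM in the other HLI libraries and 0.73 to 3.28 CPM in Sham. None of these lists had a member at 0 in every library, and their part in the values of Chrna1, Chrnd, Chrng and Ncam1 was not tested. The myogenic factor gene Myog was at 24.0, 10.6, 66.0, 14.2 and 15.7 CPM in HLI replicates 1 to 5, against 12.3, 7.80, 8.04, 5.26 and 9.67 CPM in Sham replicates 1 to 5 (log2 fold change 1.60, SE 0.46, edgeR adjusted p = 0.29). Like Chrna1, it had its highest value in HLI replicate 3 and its lowest HLI value in replicate 2.

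The embryonic myosin genes Myh3 and Myh8 ordered the libraries only in part as Chrna1 did. HLI replicate 3 was highest in each, at 442 CPM of Myh3, 695 CPM of Myh8 and 66.7 CPM of Chrna1. HLI replicate 4 was next in Myh3 and Chrna1, at 165 and 35.6 CPM, and HLI replicate 5 was next in Myh8, at 124 CPM. The library labelled Sham replicate 1 had 164 CPM of Myh3 and 78.2 CPM of Myh8. Its Chrna1, at 20.7 CPM, lay inside the range of the other Sham libraries, 16.6 to 23.6 CPM. The library labelled HLI replicate 1, with 7.71 CPM of Myh3 and 1.65 CPM of Myh8, had Chrna1 above all Sham libraries. Whether its label was exchanged was not tested. HLI replicate 2, with 109 CPM of Myh3 and 62.5 CPM of Myh8, had Chrna1 and Chrnd inside the Sham range. The list of 4 immature fibre markers also held Myl4 and Actc1. In HLI replicate 3 Myl4 was at 171 CPM, its highest value. Actc1 was at 590 CPM there, its lowest HLI value, against 311 to 1694 CPM in Sham. The 4 markers summed to 1898 CPM in HLI replicate 3, with 994 to 2282 CPM over HLI and 325 to 1899 CPM over Sham.

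**Figure D4:**
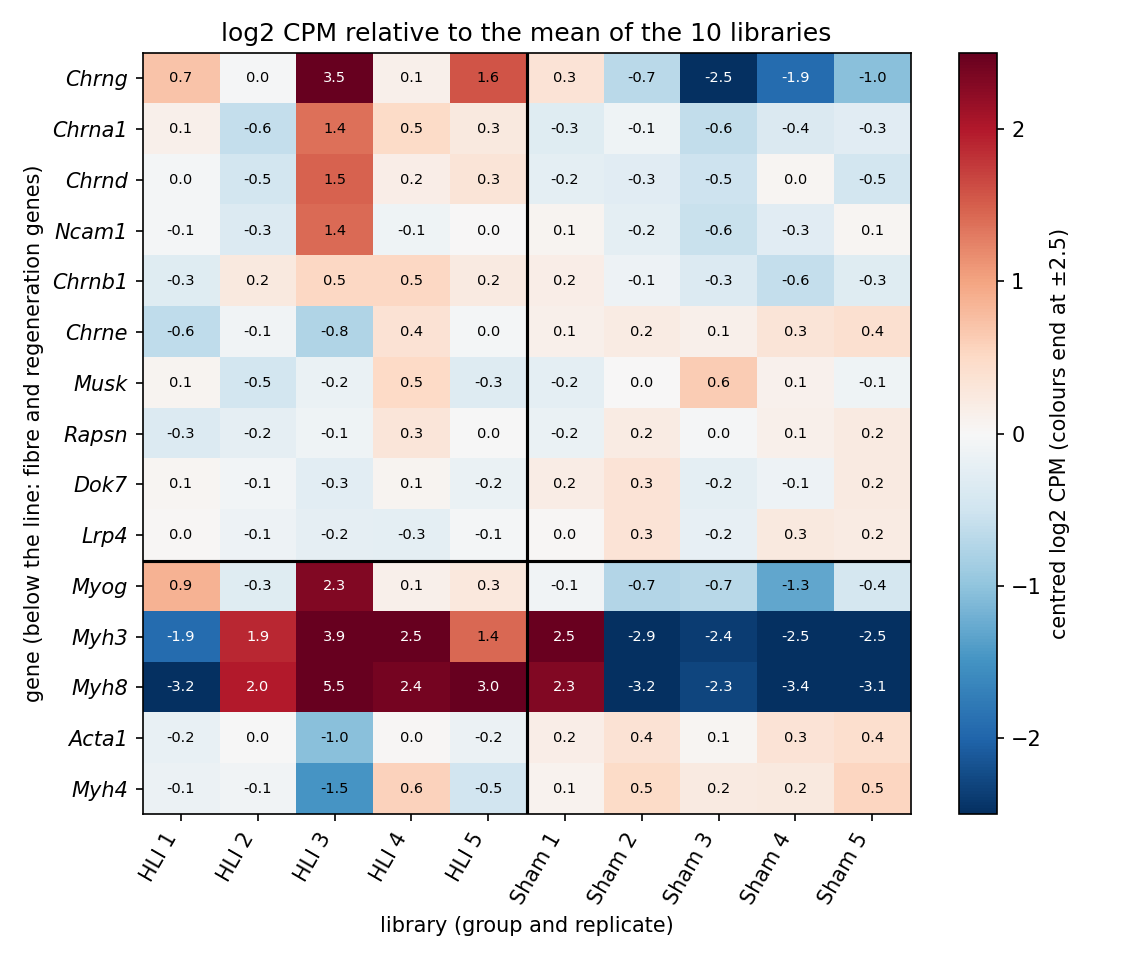
Log2 CPM of the 10 genes and, below the line, of Myog, Myh3, Myh8, Acta1 and Myh4, each centred on its mean of the 10 libraries (columns, HLI left and Sham right; red higher, blue lower). HLI replicate 3 has the highest values of Chrng, Chrna1, Chrnd and Ncam1 (3.46, 1.39, 1.47 and 1.42) and the lowest of Chrne (-0.76).

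Ordered by mean TPM in HLI, the genes were Chrnb1 (37.5 ± 9.97 TPM), Rapsn (17.3 ± 2.61), Chrna1 (16.5 ± 11.1), Ncam1 (12.9 ± 9.92), Chrne (8.57 ± 1.87), Dok7 (8.18 ± 0.68), Musk (7.19 ± 1.63), Chrnd (3.90 ± 2.96), Lrp4 (3.45 ± 0.51) and Chrng (2.17 ± 2.89; SD, n = 5). In HLI the ranges of all neighbours in this order overlapped except those of Chrnb1 and Rapsn. In Sham the order was Chrnb1 (23.4 ± 6.09 TPM), Rapsn (16.6 ± 1.21), Chrne (10.1 ± 0.39), Dok7 (8.60 ± 1.80), Chrna1 (7.84 ± 1.05), Ncam1 (7.25 ± 1.54), Musk (7.04 ± 2.02), Lrp4 (3.56 ± 0.40), Chrnd (1.91 ± 0.27) and Chrng (0.22 ± 0.27; SD, n = 5). In Sham, Rapsn and Chrne, Musk and Lrp4, Lrp4 and Chrnd, and Chrnd and Chrng did not overlap, and the other neighbours did. Chrne stood above Chrna1 in 5 of 5 Sham libraries and in 1 of 5 HLI libraries, replicate 2.

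The genes outside the set with profiles most like a subunit gene were found by the root mean square difference in centred log2 CPM over the 10 libraries. For Chrna1 they included Fdxr, Kif26b and Baiap2l1, with differences of 0.25 to 0.29, where the median over all genes was 0.64. For Chrng they were Lrrc15, Tnnt2, Mdfi and Mymk, with 0.48 to 0.63 against a median of 1.65. Each was highest in HLI replicate 3, as was Chrng, which had 0 to 33 counts in the other libraries. Lrrc15, the closest, had 37.6 CPM in HLI replicate 3. It had 2.69 to 4.13 CPM in the other HLI libraries and 0.64 to 3.10 CPM in Sham. Tnnt2, the cardiac and embryonic troponin T gene, was at 55.0 CPM in HLI replicate 3, 5.07 to 8.78 CPM in the other HLI libraries and 1.37 to 6.90 CPM in Sham. Mymk, which encodes the myoblast fusion protein myomaker, was at 19.8 CPM in HLI replicate 3, 1.90 to 3.45 CPM in the other HLI libraries and 0.23 to 2.16 CPM in Sham. For Chrne they included Slc25a42, Ccdc91 and Ube2d1, with 0.09 to 0.11 against a median of 0.47. Ccdc91 was at 46.7 to 95.9 CPM in HLI and 88.7 to 105 CPM in Sham.

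Beyond these 10 genes, 6 lists of junction genes were examined, and 0 of their tested members passed the edgeR test in either direction. Of 18 genes of agrin and MuSK signalling, 12 had log2 fold changes above 0 and 6 below, with a median of 0.24. At an unadjusted edgeR p under 0.05, 4 of them lay higher and 0 lower. Over all genes tested, 53.8% lay above 0, and 10.7% lay higher and 6.15% lower at that threshold. Pak1, a kinase acting downstream of MuSK, had 49.3 ± 4.21 CPM in HLI and 37.1 ± 6.46 CPM in Sham (SD, n = 5 each, log2 fold change 0.41, SE 0.12, edgeR adjusted p = 0.29), and Macf1, a linker of microtubules and actin, had 237 ± 42.6 CPM in HLI and 179 ± 31.7 CPM in Sham. Agrn, which encodes agrin itself, had 53.9 ± 15.9 CPM in HLI and 42.1 ± 16.3 CPM in Sham (edgeR adjusted p = 0.435).

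Of 17 genes of the synaptic basal lamina and the postsynaptic scaffold, 8 lay above 0 and 9 below, with a median of -0.07. At an unadjusted edgeR p under 0.05, 2 lay higher and 1 lower, against 10.7% and 6.15% of all genes. Nid2, a basement membrane nidogen, had 89.5 ± 30.8 CPM in HLI and 57.4 ± 15.9 CPM in Sham, and Sntb1, a syntrophin, had 19.2 ± 6.43 CPM in HLI and 13.7 ± 1.53 CPM in Sham (edgeR adjusted p = 0.29 for each). Ache, the esterase that ends the acetylcholine signal, had 30.5 ± 8.16 CPM in HLI and 36.2 ± 4.96 CPM in Sham (edgeR adjusted p = 0.43), and its collagen tail gene Colq 11.2 ± 4.52 CPM in HLI and 11.7 ± 2.07 CPM in Sham.

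Of 8 tested genes of neuregulin signalling and synaptic transcription, 6 lay above 0 and 2 below, with a median of 0.21, and 0 had an unadjusted p under 0.05. Gabpb2, which belongs to the GABP factors that bind N-boxes, had 33.8 ± 5.81 CPM in HLI and 28.5 ± 4.94 CPM in Sham, and the neuregulin receptor gene Erbb3, which Schwann cells also use, had 10.1 ± 2.34 CPM in HLI and 8.32 ± 1.71 CPM in Sham. Of 12 genes of receptor assembly and glycosylation, 7 lay above 0 and 5 below, with a median of 0.15. At an unadjusted edgeR p under 0.05, 2 lay higher and 1 lower, against 10.7% and 6.15% of all genes. Tmem35a, a chaperone of nicotinic receptors, had 1.83 ± 1.33 CPM in HLI and 0.71 ± 0.28 CPM in Sham (log2 fold change 1.37, SE 0.51, edgeR adjusted p = 0.29), with 3.99 CPM in HLI replicate 3, and Ly6e had 286 ± 58.5 CPM in HLI and 209 ± 44.2 CPM in Sham. Ric3, another nicotinic receptor chaperone, named after its values were seen, had 3.19 ± 0.88 CPM in HLI and 4.58 ± 0.42 CPM in Sham (log2 fold change -0.52, SE 0.21, edgeR adjusted p = 0.29).

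Of 13 regulators known to respond to denervation, 7 lay above 0 and 6 below, with a median of 0.10. At an unadjusted edgeR p under 0.05, 3 lay higher and 1 lower, against 10.7% and 6.15% of all genes. Beside Myog, Cdkn1a, a cell cycle inhibitor, had 40.5 ± 17.0 CPM in HLI and 24.8 ± 5.99 CPM in Sham (log2 fold change 0.71, SE 0.26, edgeR adjusted p = 0.29). Of 11 other nicotinic subunit genes, 2 passed the filter, and Chrna6 and Chrnb4 had 0 counts in every library. Chrna10 had 1.40 ± 0.75 CPM in HLI and 1.57 ± 0.58 CPM in Sham, and the summed level of all 11 was 2.77 to 4.10 CPM in HLI and 2.12 to 4.69 CPM in Sham.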

How the data were processed

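HISAT2 2.0, Bowtie 0.12.2 and build mm8 appear in the submitters' processing notes, with no role stated. How reads were counted, on which annotation and with what strand setting, is not stated. The series text speaks of cells and the sample protocol mentions adipose material, so the handling is uncertain. The authors deposited 1 table of 21956 genes with an estimated count (93.4% whole numbers) and a TPM value per library, per the file headers. The deposited TPM values sum to 1000000 in each library.

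Estimated counts were rounded and tested in R 4.3.3 with edgeR 4.0.16 (quasi-likelihood test, TMM, filterByExpr at min.count 10 and min.total.count 15), HLI over Sham, with Benjamini-Hochberg adjustment over 13404 genes. The standard error is the log2 fold change divided by the square root of F. Log2 CPM used a prior count of 2. The alternatives included limma 3.58.1 on TPM and DESeq2 1.42.0. On simulated counts for the 13404 genes of this comparison, 72% of 2-fold and 99% of 4-fold changes were recovered and 5% of calls were false. The simulated spread followed a gene's mean level alone and no simulated library stood apart from its group. These shares therefore do not say how many changes could be found in the real libraries. Named genes are the 10 genes, from each list the 2 with the lowest unadjusted p among genes averaging 1 CPM or more in a group, the 4 genes most like Chrna1, Chrng and Chrne, and Myog, Myh3, Myh8, Myh4, Acta1 and Fgf13; others were chosen after their values were seen, and some genes that the rule names are not reported here. Fgf13, named in the title, had 24.7 ± 8.42 CPM in HLI and 28.4 ± 2.88 CPM in Sham (SD, n = 5 each). The genes and lists were chosen with earlier results of these data known. In GENCODE M21, of build GRCm38, Chrne, Rapsn and Ncam1 each overlap 1 gene on the other strand. Of these 3 only the partner of Chrne is in the table, at 0 counts in every library. RefSeq promoters are of build GRCm38.p6, and no coordinates of another build are combined with the counts.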

Additional observations from a re-analysis of the deposited data

Results flagged for a closer look

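In groups of 5 libraries, 22 sets of values were examined for a highest or lowest library that lies far from the rest, judged by its gap to the nearest other library as a share of the whole range against a critical value of 0.71. For independent sets of normal values, chance flags about 1 in 20. The values here need not be normal, and the sets share libraries and genes, so the number flagged is no test against chance. Of the 22 sets, 5 were flagged, 4 of them for HLI replicate 3. That library stood apart at 11.4 CPM for Chrnd (gap of 0.745 of the range), at 6.96 CPM for Chrng (0.802) and at 41.8 CPM for Ncam1 (0.884), and at 1.05 for the Chrng to Chrne TPM ratio (0.888). Among Sham libraries, replicate 1 stood apart in the Chrng to Chrne TPM ratio, at 0.0673 (0.736), on 12 counts of Chrng.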

How the results depend on the processing

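Of 188 alternative values for the 10 genes, 183 kept their direction, 5 reversed and 0 passed the threshold. Musk ran from -0.3338 (without HLI replicate 4) to 0.0035 (without Sham replicate 3) when single libraries were left out. With limma on log2(TPM + 1) and on log2(TPM + 0.1), Musk reversed to 0.0341 and 0.0386 and Rapsn to 0.0444 and 0.0463. Unscaled TPM moved the median of all genes to 0.19 and 0.21, and relative to it both genes lay below 0. Over all genes, 51 were called higher and 3 lower without both libraries numbered 1, and DESeq2 called 35 higher and 7 lower. None of the 9 tested genes was among them, and Chrng, dropped by the filter in these fits, could not be called. The cause of these calls was not tested. The other alternatives run called 0 genes. The difference between group medians of the Chrng to Chrne ratio ran from 0.105 to 0.162 over its alternatives.

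No label says that equal replicate numbers mark shared animals. Deviations from the group means of same-numbered libraries correlated at -0.009 to 0.28 across genes, and 0 of 5 HLI libraries correlated best with its own number. With the replicate number as a block, edgeR called 0 genes higher and 0 lower (1712 and 1274 at an unadjusted p under 0.05), and the log2 fold changes of Chrna1, Chrnb1, Chrnd and Chrne were 0.67, 0.49, 0.59 and -0.47.

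Chrng is limited by depth, with 0 to 12 counts in Sham libraries. Its unfiltered fits without single libraries, chosen after seeing the data, gave log2 fold changes of 1.92 to 3.90, with 1.92 without HLI replicate 3.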

Other observations

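Scn4a, the sodium channel gene of adult muscle fibres, was chosen after its values were seen. It was at 305, 309, 142, 473 and 266 CPM in HLI replicates 1 to 5, against 346, 521, 423, 422 and 529 CPM in Sham replicates 1 to 5 (log2 fold change -0.58, SE 0.26, edgeR adjusted p = 0.29). All HLI libraries but replicate 4 lay below the Sham range. The summed mature fibre level was laid out alike, at 125600 CPM in HLI replicate 4 and 45289 to 100170 CPM in the other HLI libraries. In Sham it was 108890 to 143040 CPM. The part of fibre RNA in the Scn4a values was not tested.

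The ubiquitin ligase genes Trim63 and Fbxo32, known to be raised early after denervation, had 153 ± 77.7 and 143 ± 69.7 CPM in HLI, against 254 ± 85.3 and 249 ± 95.4 CPM in Sham (SD, n = 5 each, edgeR adjusted p = 0.30 and 0.29). In HLI replicate 3, the library with the highest Chrna1, Chrng and Ncam1, they stood at 66.8 and 89.7 CPM, the lowest values of all 10 libraries. The denervation list was mixed in that library. Myog, Cdkn1a, Runx1 and Sln had their highest values there, at 66.0, 67.4, 44.1 and 57.8 CPM. Hdac4, Hdac5 and Dach2 had their lowest, at 23.9, 37.7 and 0.05 CPM, and the remaining members neither. The summed mature fibre level was also lowest there, at 45289 CPM, and the part of fibre RNA in these values was not tested.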
